A study of Homo sapiens with 24 samples.

Results

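The HER2 siRNA effect in BT-474 cells was compared between a short and a long hormone treatment, to find the genes whose response to HER2 siRNA was larger, smaller or turned round at the later time. BT-474 is an established luminal breast cancer cell line in which ERBB2, the gene of the receptor tyrosine kinase HER2, is amplified. The 24 arrays were chosen by their titles, and all 24 of the series entered the comparison. They formed 8 groups of 3: control or HER2 siRNA, each with estrogen at 10 nM or with its vehicle (ethanol at 0.001%), for 4 or 24 h. For each gene the difference between HER2 and control siRNA at 4 h was subtracted from the same difference at 24 h, averaged over vehicle and estrogen, so each siRNA and time had 6 arrays. All cells had received an siRNA, and control siRNA was the only control. The times are those of the hormone or vehicle treatment. The labels do not give the interval between transfection and harvest or the siRNA sequences, and 1 cell line was used. Separate cultures for the replicates are not stated there, and the p-values rest on the spread between these samples, which may be technical. HER2 siRNA with estrogen at 4 h replicate 3 was placed by its title, although another of its labels says 24 h, and without it 742 genes passed in the main comparison in place of 829.

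HER2 is a receptor tyrosine kinase that forms dimers with the other HER receptors and signals through the RAS to MAPK cascade and through PI3 kinase and AKT. MAPK signalling raises D-type cyclins and immediate early genes, while AKT keeps FOXO transcription factors out of the nucleus and promotes lipid synthesis through SREBP factors. Late cell cycle genes, which act in G2 and mitosis, are controlled through a promoter element called the cell cycle genes homology region (CHR), and genes of DNA replication through E2F elements.

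The values were log2 RMA levels, on which a difference of 1 is a 2-fold change. Differences are given with their standard error from limma and p-values adjusted over all 14335 genes tested. Array medians lay between 5.28 and 5.36, and arrays of the same group correlated between 0.990 and 0.997. The 9 markers of BT-474 cells (ERBB2, GRB7, ESR1, GATA3, FOXA1, KRT8, KRT18, KRT19 and EPCAM) had levels from 8.60 to 13.9 on all arrays. Among the markers of other cell types, 3 of 6 fibroblast, 3 of 6 leukocyte and 3 of 5 endothelial genes were above the filter on low values, and none of these 9 passed as different in siRNA effect between the times. The endothelial marker VWF (-0.33, limma adjusted p = 0.0604) passed in 10 of 39 alternative settings, among them without the 3 arrays of replicate 1 named below (-0.43, adjusted p = 0.0308). PTPRC, COL3A1, LUM, CDH5 and KDR were below the filter, while the collagen COL1A1 ranged from 8.93 to 10.0. Of 9 basal and mesenchymal genes 4 were above the filter, among them TWIST1 (8.65 to 11.5) and VIM (8.72 to 10.2), and none of the 4 passed. The difference between 3' and 5' probe sets of GAPDH, a sign of RNA integrity and labelling, averaged 0.430 with HER2 siRNA against 0.296 with control siRNA at 4 h, and 0.456 against 0.314 at 24 h. It was higher with HER2 siRNA at each time (exact permutation test, 2-sided adjusted p = 0.0303 and 0.00866), by 0.134 and 0.142. With it as a covariate 776 genes passed in the main comparison. In 3 arrays of replicate 1 the labels carry a running number apart from the others. They are control siRNA with vehicle at 24 h, control siRNA with estrogen at 24 h and HER2 siRNA with estrogen at 4 h, and all 3 enter the difference between times with a negative weight. Without them 760 genes passed, 595 of them among the 829. In a bulk sample fewer cells in a phase and less RNA per cell cannot be told apart.

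ERBB2 was lower after HER2 siRNA at both times. With control siRNA its level ranged from 13.49 to 13.76 (median 13.60) at 4 h and from 13.39 to 13.94 (median 13.64) at 24 h. With HER2 siRNA it ranged from 11.86 to 12.41 (median 12.16) at 4 h and from 12.22 to 12.69 (median 12.40) at 24 h. The HER2 siRNA arrays lay below all control siRNA arrays, and the times overlapped within each siRNA. By the probe set used, the transcript was thus at 36.4% of control at 4 h and at 43.0% at 24 h. The difference between the times was 0.24 ± 0.10 (95% confidence interval 0.03 to 0.45, limma adjusted p = 0.177) and did not pass the threshold of 0.05, although it passed when HER2 siRNA vehicle 4 h replicate 3 was left out (0.31, limma adjusted p = 0.0288). The 3 probe sets of ERBB2 had differences between the times from 0.24 to 0.46, and none passed. Within HER2 siRNA alone ERBB2 was higher at 24 h by 0.28 (limma adjusted p = 0.00756).

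The siRNA effect differed between 4 and 24 h for 829 of 14335 genes (5.78%). It was higher at 24 h for 469 (3.27%) and lower for 360 (2.51%), and without the replicate number in the model these counts were 248 and 175. The 21 differences of at least 2-fold were all positive. Both effects were strong in themselves: 7111 genes (49.6%) passed at 4 h, 25% higher and 24.6% lower, and 7982 (55.7%) at 24 h, 28.1% higher and 27.6% lower. Of these, 6081 passed at both times with the same sign (85.5% of the calls at 4 h and 76.2% of those at 24 h). Across all genes the effects at 4 and 24 h, which come from different arrays, had a Pearson correlation of 0.918 and a slope of 1.10. Of the 6081 genes, 4142 (68.1%) had the larger effect at 24 h.

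Most of the 829 genes had an effect of the same sign that was larger at 24 h. There were 570 of these, 337 with a positive effect (median 0.42 at 4 h and 0.90 at 24 h) and 233 with a negative one (median -0.36 and -0.76). For 69 genes the effect kept its sign and was smaller at 24 h, and for 190 the sign changed, although only 36 of those passed the threshold at each time. Examples chosen after their values were seen are PPARG, a nuclear receptor of fat cell differentiation (-0.41 ± 0.11 at 4 h and 0.45 ± 0.11 at 24 h), ID1, an inhibitor of helix-loop-helix factors (-0.44 ± 0.11 and 0.40 ± 0.11), and SOX2, a stem cell transcription factor (0.40 ± 0.14 and -0.36 ± 0.14).

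For more genes the level moved between the times with HER2 siRNA than with control siRNA. Among all genes tested, the level at 24 h differed from that at 4 h for 1619 (11.3%; 4.74% higher and 6.56% lower) with control siRNA. With HER2 siRNA it differed for 3002 (20.9%; 10.4% higher and 10.5% lower). Among the 829 genes, 528 moved with HER2 siRNA only, 182 with control siRNA only, 78 with each and 41 with neither. Since the difference is built from the same arrays, these counts describe where it arose and do not test it.

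**Figure D1:**
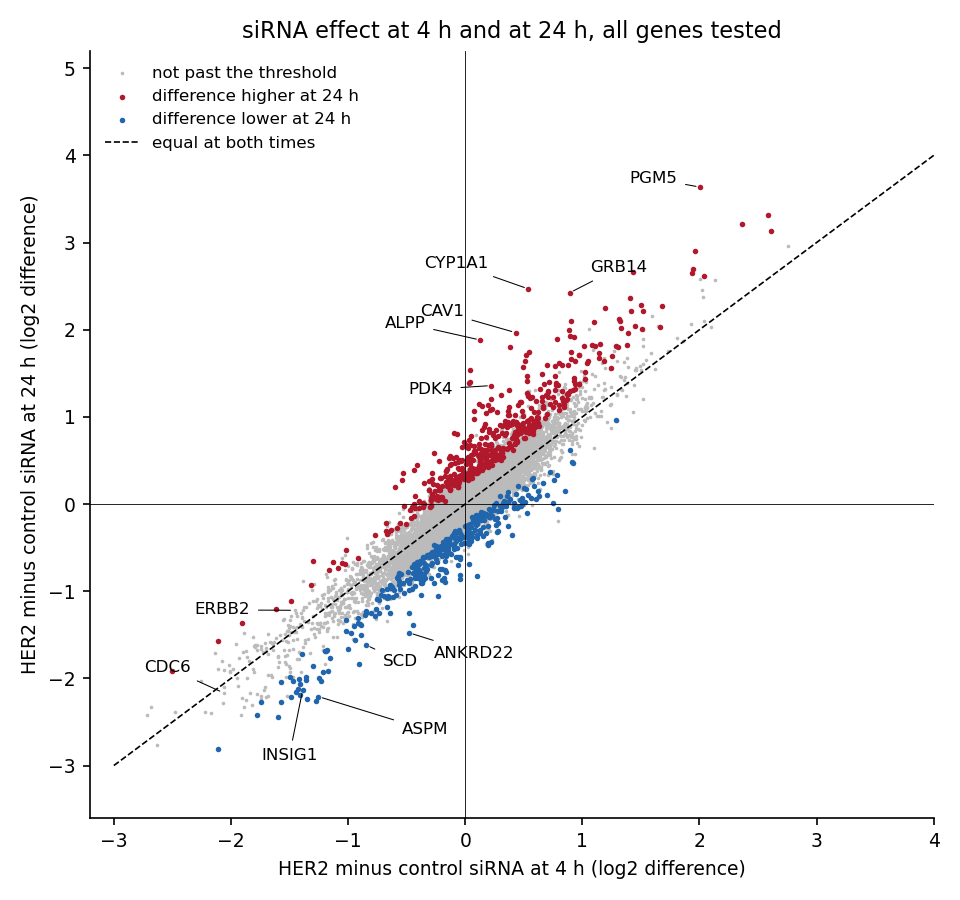
The HER2 minus control siRNA difference at 4 h (horizontal axis, log2) is plotted against that at 24 h (vertical axis, log2) for 14335 genes, with red and blue points for the 469 genes with a higher and the 360 with a lower effect at 24 h. The cloud follows the dashed line of equal effects with a slope of 1.10, and ALPP and PDK4 lie near 0 at 4 h and well above it at 24 h.

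Among the gene lists, those of the mitotic spindle and of mitotic kinases and cyclins held the most genes with a lower effect at 24 h. Promoter sequences of 5 of these genes from RefSeq (GRCh38.p14) are shown with those of 3 genes of DNA replication, because genes with and without the marked letters are set side by side further on. Each is the 120 bases before the gene's start, 5′ to 3′ on the gene's strand. The 5 were chosen among genes that passed and held CHR letters there, and the 3 for E2F letters there and a large fall at 4 h. The contrast between the printed sets is thus built by the choice. BUB1, CDC25B, NEK2 and TACC3 passed without CHR letters in the 250 bases before the start, and MCM10 (-2.69 at 4 h) held no E2F letters. In the mitotic genes the capitals mark the CHR letters TTTGAA or TTTAAA, on either strand. MKI67 also holds E2F letters. The positions are MKI67 at chr10:128126424-128126543 on the minus strand, ASPM at chr1:197146670-197146789 on the minus strand, CENPE at chr4:103198344-103198463 on the minus strand, KIF18A at chr11:28108157-28108276 on the minus strand, PTTG1 at chr5:160421735-160421854 on the plus strand.
MKI67: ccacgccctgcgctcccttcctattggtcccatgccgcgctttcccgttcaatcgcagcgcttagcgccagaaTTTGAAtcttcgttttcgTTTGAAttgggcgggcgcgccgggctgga
ASPM: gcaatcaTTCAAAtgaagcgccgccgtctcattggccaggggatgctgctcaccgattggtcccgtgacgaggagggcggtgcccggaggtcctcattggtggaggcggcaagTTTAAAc
CENPE: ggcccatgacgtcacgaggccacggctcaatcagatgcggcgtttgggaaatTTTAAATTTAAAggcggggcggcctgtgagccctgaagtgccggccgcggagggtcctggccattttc
KIF18A: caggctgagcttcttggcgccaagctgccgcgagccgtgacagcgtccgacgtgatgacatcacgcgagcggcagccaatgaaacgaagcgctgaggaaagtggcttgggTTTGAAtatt
PTTG1: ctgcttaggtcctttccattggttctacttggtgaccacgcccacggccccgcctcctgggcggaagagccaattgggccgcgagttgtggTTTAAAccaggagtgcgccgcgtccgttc

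In the replication genes the capitals mark the E2F letters TTTGGCG or TTTCCCG, again on either strand. CDC6 and CDC45 load and activate the replicative helicase, and GINS2 is a subunit of it. The positions are CDC6 at chr17:40287759-40287878 on the plus strand, CDC45 at chr22:19479800-19479919 on the plus strand, GINS2 at chr16:85688955-85689074 on the minus strand.
CDC6: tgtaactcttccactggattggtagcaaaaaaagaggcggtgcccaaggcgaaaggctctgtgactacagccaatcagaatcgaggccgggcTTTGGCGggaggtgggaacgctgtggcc
CDC45: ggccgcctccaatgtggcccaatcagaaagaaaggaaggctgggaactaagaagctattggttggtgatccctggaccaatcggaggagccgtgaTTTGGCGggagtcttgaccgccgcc
GINS2: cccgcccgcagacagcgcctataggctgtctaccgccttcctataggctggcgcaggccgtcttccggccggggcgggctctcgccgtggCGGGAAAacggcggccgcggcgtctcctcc

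Of 28 genes of the mitotic spindle and cytokinesis, 13 had a lower siRNA effect at 24 h and none a higher one, against 2.51% lower among all genes tested. All 28 values were negative, with a median of -0.50 against 0.0075 over all genes. The median siRNA effect of these genes was -1.43 at 4 h and -2.0 at 24 h. ASPM, a protein of the spindle poles, had levels of 9.45 to 9.86 (median 9.64) at 4 h and 9.80 to 10.40 (median 9.99) at 24 h with control siRNA. With HER2 siRNA its levels were 8.11 to 8.89 (median 8.34) at 4 h and 7.38 to 8.21 (median 7.87) at 24 h. The siRNA groups were apart at each time, and they lay further apart at 24 h because the level was higher with control siRNA and lower with HER2 siRNA. The effect of ASPM changed by -0.96 ± 0.17 (limma adjusted p = 0.00229). CENPE, a kinesin that moves chromosomes to the metaphase plate, changed by -0.72 ± 0.13 (adjusted p = 0.00364), and KIF18A, a kinesin that dampens chromosome movements, by -0.71 ± 0.14 (adjusted p = 0.00518). HMMR, a spindle assembly factor, changed by -0.88 ± 0.20, KIF14, a kinesin of cytokinesis, by -0.84 ± 0.20, and KIF20A, a kinesin of the central spindle, by -0.77 ± 0.18. GAS2L3, which links microtubules and actin in cytokinesis, had the lowest value of the list (-0.98 ± 0.22, adjusted p = 0.0132).

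Mitotic kinases, cyclins and their regulators showed the same direction. Of 32 tested, 10 had a lower effect at 24 h and none a higher one (median -0.38), against 2.51% lower among all genes. PTTG1, the securin that inhibits the separation of sister chromatids until anaphase, changed by -0.80 ± 0.17 (limma adjusted p = 0.00948), and UBE2C, the ubiquitin carrier of the anaphase-promoting complex, by -0.70 ± 0.15. The cyclins CCNB1 (-0.71 ± 0.17) and CCNB2 (-0.56 ± 0.15) and the phosphatase CDC25B (-0.44 ± 0.10), which activate CDK1, also passed. MKI67, the Ki-67 proliferation marker, had control siRNA levels of 7.39 to 7.62 (median 7.46) at 4 h and 7.66 to 8.21 (median 7.93) at 24 h. The HER2 siRNA arrays had levels of 6.25 to 6.69 (median 6.50) and 6.20 to 6.70 (median 6.43). The control siRNA arrays did not overlap between the times and the HER2 siRNA arrays did, so the change of -0.51 ± 0.08 (adjusted p = 0.00127) arose with control siRNA (0.47 between the times, against -0.04 with HER2 siRNA). Other members had strong effects at each time whose difference did not pass the test, such as CDK1 itself (-1.94 at 4 h and -2.09 at 24 h) and the transcription factor FOXM1 (-1.59 and -1.82).

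Of 32 genes of the centromere, kinetochore and spindle checkpoint, 3 had a lower effect at 24 h, against 2.51% of all genes. None had a higher one (median -0.16). The 3 were CENPF (-0.65 ± 0.17), CENPA (-0.40 ± 0.11) and BUB1 (-0.64 ± 0.18). These calls were close to the threshold: they ended on leaving out any one of 8, 16 and 18 of the 24 arrays, with limma adjusted p-values up to 0.0568, 0.0865 and 0.0873. The median siRNA effect on this list was -1.42 at 4 h and -1.55 at 24 h.

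The mitotic differences were larger in replicate 1, which includes the 3 arrays numbered apart. For the spindle list the median was -0.80 in replicate 1, -0.44 in replicate 2 and -0.32 in replicate 3, with each called gene negative in all 3. The 13 and 10 calls of the first mitotic lists were 12 and 9 without those 3 arrays, and 8 and 7 without the replicate number in the model. The 13 became 8 without any one of control siRNA vehicle 24 h replicate 3, estrogen 24 h replicate 2, vehicle 4 h replicate 2 and estrogen 4 h replicate 1, and 7 on leaving out control siRNA estrogen 24 h replicate 3. The 10 became 6 on leaving out 1 control siRNA array, either replicate 2 or 3 at 24 h with vehicle or estrogen, or vehicle 4 h replicate 2. With a covariate for GAPDH 3' minus 5' signal the counts were 11 and 10.

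DNA replication genes were lowered by HER2 siRNA at each time. Of 47 tested, 46 passed as lower at 4 h and 44 at 24 h, against 24.6% and 27.6% of all genes. Their median effect was -1.13 at 4 h and -1.09 at 24 h, and the median difference was 0.06. CDC6 had control siRNA levels of 8.03 to 8.47 (median 8.37) at 4 h and 7.85 to 9.02 (median 8.47) at 24 h. After HER2 siRNA the levels were 6.0 to 6.48 (median 6.24) and 5.62 to 6.76 (median 6.32). The siRNA groups were apart at each time and the times overlapped within each siRNA, with a difference of -0.10 ± 0.12 (limma adjusted p = 0.707). CDC45 (0.35 ± 0.13, adjusted p = 0.115) and GINS2 (0.20 ± 0.08, adjusted p = 0.166) did not pass, and MCM10, a replication initiation factor with effects of -2.69 and -2.33, did not either (0.36 ± 0.14, adjusted p = 0.157). Only 3 members passed, near the share of 5.78% among all genes. DBF4, the activating subunit of the CDC7 kinase, was lower (-0.61 ± 0.14, adjusted p = 0.0148). TICRR, an origin firing factor, was lower (-0.38 ± 0.11), and RPA2, a subunit of the single-strand binding protein, was higher (0.25 ± 0.07). The calls of TICRR and RPA2 ended on leaving out any one of 19 and of 12 arrays, with adjusted p-values up to 0.0929 and 0.0662. Without HER2 siRNA vehicle 4 h replicate 1 the list had 4 higher calls. Its median difference was 0.18 with vehicle and -0.04 with estrogen.

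Of 28 genes of nucleotide synthesis only IMPDH2, the rate-limiting enzyme of guanine nucleotide synthesis, passed (0.31 ± 0.08), and its call ended on leaving out any one of 7 arrays (limma adjusted p up to 0.0554). Of 17 genes of homologous recombination and the Fanconi pathway and of 12 E2F and pocket proteins none passed, and E2F1, which the series title names, had a difference of 0.13 ± 0.13 (limma adjusted p = 0.639). Among 14 cyclins, kinases and inhibitors of the G1 to S step 2 had a higher effect at 24 h, against 3.27% of all genes. CDKN1C, the inhibitor p57, had control siRNA levels of 6.70 to 7.22 (median 6.78) and 5.82 to 7.28 (median 6.54), and HER2 siRNA levels of 8.15 to 8.46 (median 8.31) and 8.12 to 9.10 (median 8.61). It was raised by HER2 siRNA at each time without overlap, by 1.45 at 4 h and 2.04 at 24 h (difference 0.59 ± 0.09, adjusted p = 0.000903). CDK6, a partner of D-type cyclins, differed by 0.04 at 4 h and 0.54 at 24 h (difference 0.51 ± 0.10, adjusted p = 0.00533), although 2 of its 7 probe sets had the opposite sign.

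**Figure D2:**
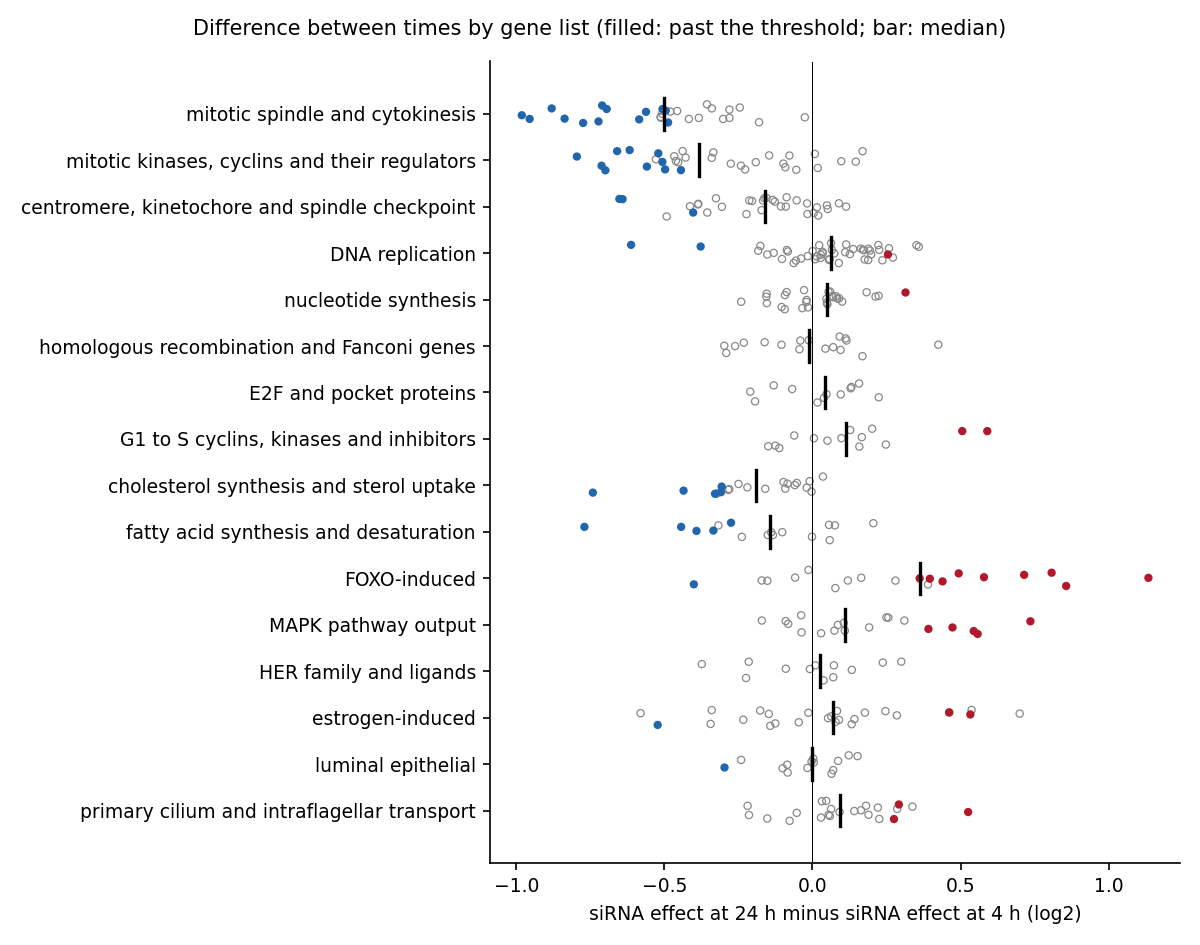
Each point is the siRNA effect at 24 h minus that at 4 h (log2, horizontal axis) for 1 gene of 1 of 16 lists, filled where the gene passed the threshold, with a black bar at the median of the list. The spindle genes lie below 0 with a median of -0.50, the replication genes around 0.06 and the FOXO-induced genes mostly above 0 with a median of 0.36.

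The CHR and E2F letters marked in the sequences above were counted in all promoters of the table. In the 250 bases before the start, TTTGAA or TTTAAA on either strand stood in 22.1% of 27305 promoters in the RefSeq table and in 14.7% of the promoters of 11448 genes tested. They stood in 20.5% of the promoters of genes with a lower effect at 24 h and in 16.4% of those with a higher one. In the 3 mitotic lists they stood in 19 of 23 genes that passed (82.6%) and in 22 of 55 that did not, and in DNA replication genes in 2.56%. The pooled shares depend in part on the lists, since 22 of the 55 came from the centromere list and 4 of these held the letters. Within the spindle list the shares were 91.7% of genes that passed and 57.1% of the others. For the mitotic kinases and cyclins they were 75.0% and 52.6%. The E2F letters stood in 41.0% of the replication genes and in 7.35% of the promoters of all genes tested. The CHR and E2F letters do not contain each other, and TTTAAA reads the same on each strand. A match of letters is a description and not a binding site.

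The cell cycle genes of these 4 lists, sorted by their letters, are described again here, with no test. The 35 genes with CHR letters only had a median difference of -0.50, and 16 of them had a lower effect at 24 h. For the 18 genes with E2F letters only the median was 0.12 and none passed in either direction. The median siRNA effects at 4 h were close, at -1.41 for the CHR and -1.34 for the E2F group, while at 24 h they were -1.99 and -1.20. The 7 genes with each kind of letters had a median of -0.40 (4 lower), and the 57 with neither -0.09 (5 lower). Letters and lists coincide in large part, since 1 replication gene held CHR letters.

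**Figure D3:**
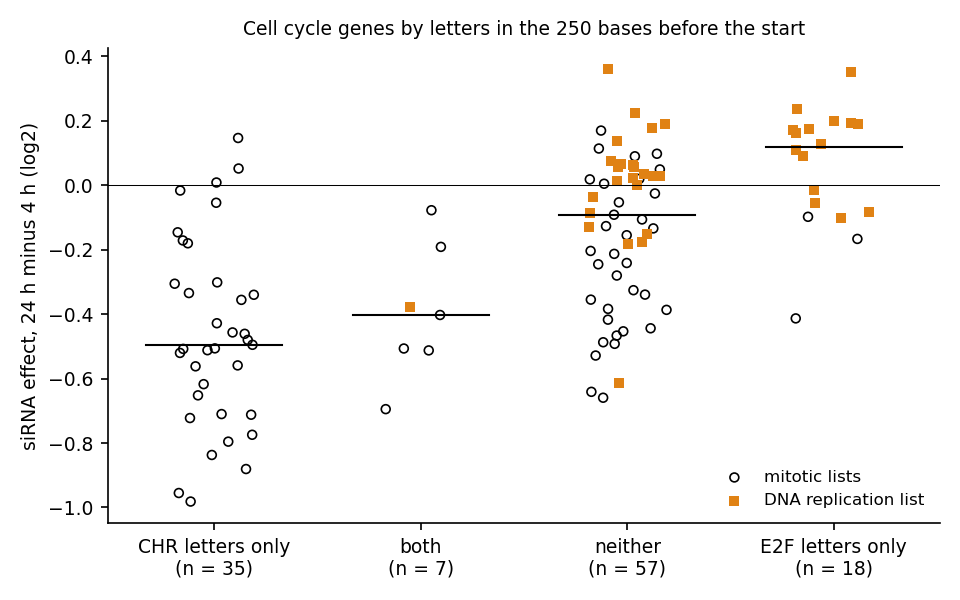
The siRNA effect at 24 h minus that at 4 h (log2, vertical axis) is plotted for cell cycle genes grouped by the letters in the 250 bases before their start, with a bar at the median of each group. Genes with CHR letters only are mostly below 0 (median -0.50, n = 35), and genes with E2F letters only lie around 0.12 (n = 18).

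Many lipid synthesis genes were lowered by HER2 siRNA, and several were lowered further at 24 h. Of 20 genes of cholesterol synthesis and sterol uptake, 17 were lower and 1 higher at each time, with a median effect of -0.58 at 4 h and -0.71 at 24 h. The effect of 5 differed between the times: these 5 had a lower effect at 24 h and none a higher one (median -0.19). Among all genes 24.6% were lower at 4 h and 27.6% at 24 h, and 2.51% had a lower effect at 24 h. INSIG1, which holds SREBP factors in the endoplasmic reticulum and is itself a SREBP target, had control siRNA levels of 10.54 to 11.03 (median 10.78) and 10.51 to 10.96 (median 10.71). With HER2 siRNA its levels were 9.08 to 9.98 (median 9.37) at 4 h and 8.33 to 8.79 (median 8.62) at 24 h. The control siRNA arrays overlapped between the times and the HER2 siRNA arrays were all lower at 24 h, a difference of -0.74 ± 0.13 (limma adjusted p = 0.0028). The pathway enzymes SQLE, squalene epoxidase (-0.33 ± 0.08), and IDI1, isopentenyl diphosphate isomerase (-0.31 ± 0.07), were lowered at 4 h and further at 24 h, each with 1 of 4 probe sets of the opposite sign. LSS, lanosterol synthase, was not lower at 4 h (0.05 ± 0.04) and was at 24 h (-0.26 ± 0.04), a difference of -0.31 ± 0.06 (adjusted p = 0.007). The letters CCAAT, on either strand, stood in 83.3% of the promoters of this list against 34.5% of those of all genes tested. The SRE letters ACCCCAC stood in 11.1% (2 of 18) against 5.69%. The letters GCGTG also stood in 83.3%, against 43.4%. Within the list CCAAT stood in 75.0% of the promoters of genes that passed and in 85.7% of the others.

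Of 16 genes of fatty acid synthesis and desaturation 11 were lowered at each time, against 24.6% of all genes at 4 h and 27.6% at 24 h. Of the 16, 5 had a lower effect at 24 h and none a higher one (median -0.15), against 2.51% lower among all genes. SCD, the desaturase that makes oleate, had levels of 12.26 to 12.52 (median 12.38) and 12.24 to 12.36 (median 12.30) with control siRNA. The HER2 siRNA arrays had levels of 11.38 to 11.70 (median 11.52) at 4 h and 10.59 to 10.77 (median 10.68) at 24 h. No HER2 siRNA array at 24 h overlapped any other array, and the effect went from -0.85 ± 0.06 to -1.62 ± 0.06 (difference -0.77 ± 0.08, limma adjusted p = 1.63e-05). All 4 probe sets of SCD passed in the same direction. FASN, fatty acid synthase, went from -0.28 to -0.68 (difference -0.39 ± 0.09, adjusted p = 0.0155), with 1 of 2 probe sets of the opposite sign. ME1, malic enzyme, which supplies NADPH, went from -0.80 to -1.25 (-0.44 ± 0.07, adjusted p = 0.000547). ELOVL6, a fatty acid elongase, passed (-0.33 ± 0.09) but lost its call on leaving out any one of 15 arrays, with adjusted p-values up to 0.0777. The 5 calls were 3 without any one of 10 arrays, which were control siRNA estrogen 24 h replicates 2 and 3, control siRNA vehicle 4 h replicate 2, HER2 siRNA vehicle replicates 1 and 2 at each time, HER2 siRNA estrogen 24 h replicate 2 and HER2 siRNA estrogen 4 h replicates 2 and 3. They were 2 without the replicate number in the model, which left SCD and FASN. Among 6 genes of sterol efflux MYLIP, the ubiquitin ligase of the LDL receptor, had a higher effect at 24 h (0.43 ± 0.10).

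Of 19 FOXO-induced genes HER2 siRNA raised 14 and lowered 2 at 4 h, and raised 16 and lowered 3 at 24 h. Among all genes 25% were raised at 4 h and 28.1% at 24 h. Of the 19, 9 had a higher effect at 24 h and 1 a lower one, against 3.27% higher and 2.51% lower among all genes. Their median effect was 0.89 at 4 h and 1.30 at 24 h, and the median difference was 0.36. In replicates 1, 2 and 3 the median difference was 0.44, 0.35 and 0.08. CITED2, a transcriptional coregulator, had control siRNA levels of 7.89 to 8.34 (median 8.20) at 4 h and 8.09 to 8.51 (median 8.26) at 24 h, and HER2 siRNA levels of 9.12 to 9.87 (median 9.65) and 10.21 to 10.87 (median 10.45). The siRNA groups were apart at each time, and the HER2 siRNA arrays were all higher at 24 h. The effect was 1.41 ± 0.10 at 4 h and 2.22 ± 0.10 at 24 h (difference 0.81 ± 0.14, limma adjusted p = 0.00186). PDK4, the kinase that shuts off pyruvate dehydrogenase and 1 of the 9, had levels of 4.14 to 4.81 (median 4.55) and 4.21 to 4.79 (median 4.45) with control siRNA. After HER2 siRNA the levels were 4.56 to 4.94 (median 4.64) at 4 h and 5.24 to 6.52 (median 5.81) at 24 h. Only the HER2 siRNA arrays at 24 h were above the filter level of 5, so PDK4 was tested only through the group where it was high and its difference (1.13 ± 0.18) is a description. IRS2, an adaptor of the insulin receptor, went from 1.94 to 2.65 (0.71 ± 0.15), the insulin receptor INSR itself from 1.02 to 1.52 (0.49 ± 0.11), and FBXO32, a ubiquitin ligase of muscle atrophy, from 2.04 to 2.62 (0.58 ± 0.13). GADD45A, a stress gene also induced by p53, was the member with a lower effect at 24 h (-0.40 ± 0.10). Without the replicate number in the model 3 of the 9 higher calls were made, CITED2 (limma adjusted p = 0.003), IRS2 (0.011) and PDK4.

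Of 19 genes that report MAPK signalling, HER2 siRNA lowered 12 and raised none at 4 h, and lowered 10 and raised 2 at 24 h. Among all genes 24.6% were lowered at 4 h and 27.6% at 24 h. For 5 of the 19 the effect was higher at 24 h, with none lower (median 0.11), against 3.27% higher among all genes. DUSP6, the phosphatase that switches off ERK, had levels of 9.10 to 9.78 (median 9.50) and 9.28 to 9.47 (median 9.31) with control siRNA. With HER2 siRNA its levels were 7.34 to 7.89 (median 7.55) at 4 h and 7.73 to 8.16 (median 7.98) at 24 h. The siRNA groups stayed far apart, and the effect went from -1.91 to -1.36 (difference 0.54 ± 0.13, limma adjusted p = 0.0208). SPRY4, a feedback inhibitor of receptor kinases, went from -1.32 to -0.93 (0.39 ± 0.09, adjusted p = 0.0144). EPHA4, an ephrin receptor, had no effect past the threshold at 4 h (0.05 ± 0.08) and was raised at 24 h (0.78 ± 0.08), a difference of 0.74 ± 0.11 (adjusted p = 0.000727). IER3, an immediate early gene, differed by -0.31 at 4 h and 0.16 at 24 h (0.47 ± 0.10), and with control siRNA its level fell by 0.60 between the times (adjusted p = 2.5e-05). Without the 3 arrays numbered apart 2 members passed, EPHA4 and IER3, and DUSP6 (adjusted p = 0.104) and SPRY4 (0.0512) did not. Without the replicate number 2 members passed, EPHA4 (0.0254) and DUSP6 (0.0435). Of 12 HER family receptors and ligands none passed in either direction, with ERBB3 at 0.07 ± 0.07 and ERBB4 at -0.37 ± 0.14.

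CYP1A1, a cytochrome induced through the aryl hydrocarbon receptor, had the largest difference of all genes. Its list of receptor and targets was drawn up after its change had been seen. With control siRNA its levels were 12.07 to 13.18 (median 12.40) at 4 h and 7.30 to 9.56 (median 8.19) at 24 h. The HER2 siRNA arrays had levels of 12.59 to 13.55 (median 13.00) at 4 h and 10.21 to 11.59 (median 10.59) at 24 h. The siRNA groups overlapped at 4 h and were apart at 24 h, since the level fell by 4.23 with control siRNA and by 2.30 with HER2 siRNA. The siRNA effect was 0.54 ± 0.14 at 4 h and 2.47 ± 0.14 at 24 h, a difference of 1.93 ± 0.20 (limma adjusted p = 1.63e-05). The other 8 members tested, the receptor AHR and targets such as CYP1B1 (0.07 ± 0.13) and TIPARP (0.05 ± 0.14) among them, did not pass, and the nearest relative CYP1A2 differed by 0.41 ± 0.19 (adjusted p = 0.219).

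Several of the largest positive differences belonged to genes with little or no siRNA effect at 4 h. ALPP, placental alkaline phosphatase, had levels of 4.29 to 4.58 (median 4.49) and 3.96 to 4.61 (median 4.12) with control siRNA. After HER2 siRNA the levels were 4.23 to 4.88 (median 4.64) at 4 h and 5.70 to 6.66 (median 5.99) at 24 h. Every HER2 siRNA array at 24 h lay above every other array, and all others lay below the filter level of 5. ALPP was tested only through the group where it was high, so its difference of 1.75 ± 0.15 is given as a description, and it has near-identical copies whose transcripts its probes may also bind. SAMD4A, a repressor of translation, had an effect of 0.04 ± 0.18 at 4 h and 1.54 ± 0.18 at 24 h. The same pattern was seen for NPAS2, a clock transcription factor (0.04 ± 0.11 and 1.40 ± 0.11), and ALDH1A3, which makes retinoic acid (0.04 ± 0.16 and 1.39 ± 0.16). For NPAS2 the level fell by 0.58 with control siRNA between the times and was higher by 0.78 with HER2 siRNA. Of its 3 probe sets 2 passed, and the lowest difference among them was 0.06.

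CAV1 and CAV2, the caveolins that form the coat of caveolae, passed as 2 of 5 genes of that list, against 3.27% higher among all genes. CAV1 had levels of 4.14 to 4.62 (median 4.45) and 4.16 to 4.46 (median 4.37) with control siRNA. With HER2 siRNA its levels were 4.54 to 5.40 (median 4.74) at 4 h and 5.30 to 7.35 (median 6.31) at 24 h. At 24 h all HER2 siRNA arrays lay above all control siRNA arrays, with a wide spread. The control siRNA arrays and the median with HER2 siRNA at 4 h were below the filter level of 5. CAV1 too was tested only through the group where it was high, so its difference of 1.53 ± 0.26 is a description. CAV2 was raised by 1.41 at 4 h and 2.37 at 24 h (0.96 ± 0.17, adjusted p = 0.00285), while CAVIN1, the caveolar coat partner, was not (0.02 ± 0.14).

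Other genes were already raised at 4 h and raised further at 24 h. PGM5, a phosphoglucomutase-related protein of adherens junctions, went from 2.01 ± 0.21 to 3.64 ± 0.21 (difference 1.63 ± 0.29). Its 12 HER2 siRNA arrays did not overlap between the times (5.71 to 7.43 and 7.49 to 8.97). With control siRNA its medians were 4.57 and 4.53, below the filter level of 5. PGM5 was thus tested only through the HER2 siRNA arrays, where it was high, and its difference is a description. GRB14, an adaptor that inhibits the insulin receptor, went from 0.89 to 2.42 (1.53 ± 0.22), PTGER4, a prostaglandin receptor, from 1.43 to 2.66 (1.23 ± 0.16), and ID4, an inhibitor of helix-loop-helix factors, from 0.91 to 2.10 (1.20 ± 0.16). The GRB14 level was at most 4.12 with control siRNA and had a median of 4.46 with HER2 siRNA at 4 h. GRB14 was thus tested only through HER2 siRNA at 24 h (5.38 to 7.67), where it was high, and its difference is a description. For PTGER4 1 of 2 probe sets passed, and the other had a difference of 0.06. The chemokine receptor CCR2 went from 0.39 to 1.80 (1.42 ± 0.17), and the membrane protein TMEM139 from 0.51 to 1.71 (1.20 ± 0.14). Of noncoding RNAs, DSCAM-AS1, which is expressed in luminal breast cancer, went from 0.51 to 1.64 (1.13 ± 0.15) and CRIM1-DT from 0.54 to 1.74 (1.20 ± 0.19). The medians with control siRNA were 4.91 and 4.68 for CCR2 and 4.75 and 4.63 for CRIM1-DT, below the filter level of 5. The rule that named these genes asked for 1 sign in vehicle and in estrogen, so their equal direction there is not a result.

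ANKRD22, an ankyrin repeat protein, had the most negative difference of all genes. Its levels were 8.09 to 8.29 (median 8.19) and 7.73 to 8.17 (median 7.92) with control siRNA. The HER2 siRNA arrays had levels of 7.44 to 7.95 (median 7.74) at 4 h and 6.16 to 6.88 (median 6.39) at 24 h. The HER2 siRNA arrays at 24 h lay below all others, and the effect went from -0.48 ± 0.07 to -1.48 ± 0.07 (difference -1.0 ± 0.10, limma adjusted p = 1.63e-05). DRAIC, a long noncoding RNA, went from -0.45 to -1.39 (-0.94 ± 0.11), and NMU, the neuropeptide neuromedin U, from -0.91 to -1.84 (-0.93 ± 0.18). PROM2, a membrane protein of cell protrusions, had no effect at 4 h past the threshold (-0.04 ± 0.07) and was lowered at 24 h (-0.82 ± 0.07, difference -0.78 ± 0.10), as was ABCA12, a lipid transporter (-0.24 ± 0.13 and -1.05 ± 0.13, difference -0.81 ± 0.18). Of 5 probe sets of PROM2 2 passed, with differences from -0.78 to -0.003 over the 5. MTHFD2L, a mitochondrial folate enzyme, went from -0.04 to -0.86 (-0.82 ± 0.19), with 1 of 4 probe sets of the opposite sign. CEP126, a centrosome protein, was raised at 4 h (0.79 ± 0.12) and not at 24 h (-0.06 ± 0.12, difference -0.85 ± 0.17). The medians of CEP126 at 4 and 24 h were 4.54 and 4.88 with control siRNA and 5.41 and 4.85 with HER2 siRNA. Only HER2 siRNA at 4 h had a median above the filter level of 5, so this difference is a description. ZNF165, a zinc finger protein, went from 0.10 to -0.83 (-0.92 ± 0.23, adjusted p = 0.0236) and lost its call without control siRNA vehicle 24 h replicate 3 (adjusted p = 0.0512) or control siRNA estrogen 4 h replicate 1 (0.0509).

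**Figure D4:**
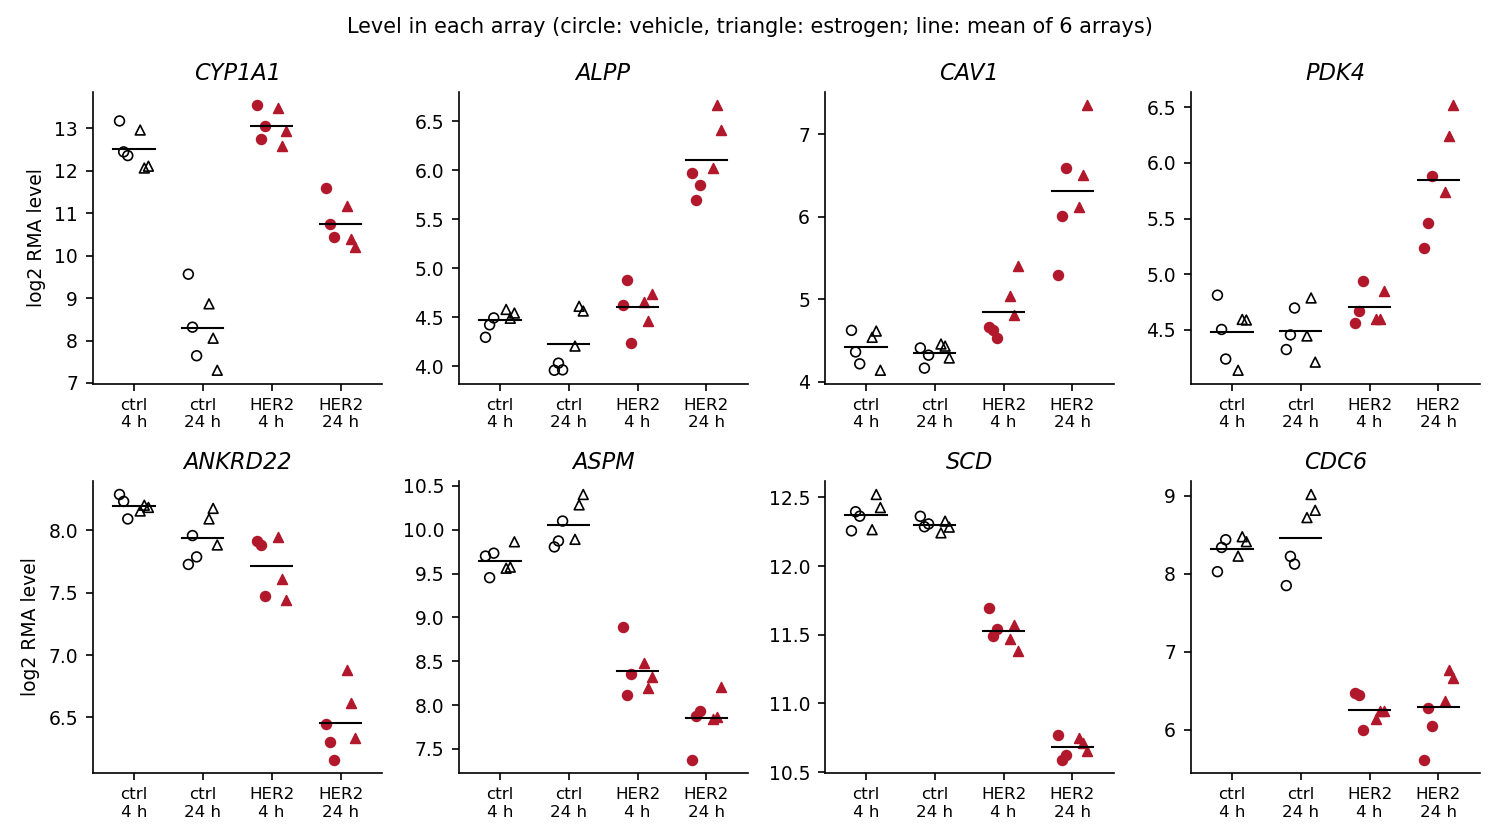
The log2 RMA level of 8 genes on each of the 24 arrays is plotted by siRNA and time, with circles for vehicle, triangles for estrogen and a line at the mean of 6 arrays. ALPP and PDK4 are high only with HER2 siRNA at 24 h, SCD is lower at 24 h than at 4 h with HER2 siRNA only, ASPM is higher at 24 h with control siRNA and lower with HER2 siRNA, and CDC6 shows the same gap at each time.

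Stress, survival and differentiation genes gave at most 4 calls a list, where 5.78% of all genes tested passed (3.27% higher and 2.51% lower). Lists with 1 call among 14 to 19 genes were near that share, and their single members describe no pathway. ATF4, the transcription factor of the amino acid response, had a higher effect at 24 h (0.37 ± 0.08, limma adjusted p = 0.00927), with 1 of 16 genes of its list. PMAIP1, the apoptosis activator NOXA, was lower (-0.73 ± 0.17) and MCL1, a survival protein, higher (0.24 ± 0.07) among 12 genes of the BCL2 family. Of 13 p53 targets ZMAT3 was lower (-0.57 ± 0.10) and XPC, a DNA damage sensor, higher (0.30 ± 0.09). The calls of MCL1 and XPC ended on leaving out any one of 16 and of 17 arrays (limma adjusted p up to 0.0859 and 0.0883), and 2 of 5 probe sets of MCL1 had the opposite sign. Of 24 hypoxia and glycolysis genes 3 had a higher effect and 1, the hexokinase HK2 (-0.30 ± 0.07), a lower one. NDRG1, a hypoxia-induced growth inhibitor, had a higher effect (0.40 ± 0.09). Of 14 interferon genes HERC5 (0.68 ± 0.15) and IRF9 (0.43 ± 0.10) passed, of 23 cilium genes 3 did, with the dynein chain DYNLRB2 at 0.53 ± 0.12, and of 26 estrogen-induced genes 2 were higher (SUSD3, with 1 of 2 probe sets of the opposite sign, and MYBL1) and 1 lower (RERG). Those 2 higher calls were 0 without the 3 arrays numbered apart or without the replicate number. They were 4 on leaving out control siRNA vehicle replicate 1 at 24 h or replicate 3 at 4 h, 5 without HER2 siRNA estrogen 24 h replicate 1, and 1 without any one of control siRNA vehicle or estrogen 24 h replicate 3, HER2 siRNA vehicle 24 h replicate 2, HER2 siRNA estrogen 24 h replicate 3 and HER2 siRNA estrogen 4 h replicate 1. Of 19 lysosome and autophagy genes GABARAPL1 was higher (0.44 ± 0.11), and of 16 ribosome biogenesis genes FBL (0.25 ± 0.06). Without the 3 arrays numbered apart IRF9 (limma adjusted p = 0.0714), DYNLRB2 (0.0679) and GABARAPL1 (0.0639) did not pass. Among 15 chaperones of the endoplasmic reticulum DNAJC3 (-0.30 ± 0.08) and among 14 luminal genes ELF5 (-0.30 ± 0.09) were lower, with calls that ended on leaving out any one of 13 and of 17 arrays (adjusted p up to 0.068 and 0.0885). None of 7 nuclear receptor coregulators or 4 basal and mesenchymal genes passed.

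The vehicle and the estrogen arrays, which are separate arrays, each give the difference on their own. It passed for 282 genes with vehicle (1.97%), of which 144 were higher (1%) and 138 lower (0.963%). With estrogen it passed for 106 (0.739%), 90 higher (0.628%) and 16 lower (0.112%), each with 12 arrays. Of the 829 genes 826 (99.6%) had the same sign in both, against 62.2% of all genes, and all 829 had the same sign in the 3 replicate numbers. Averaging over these arrays favours such genes, so this is a description. Across all genes the differences in vehicle and in estrogen had a Pearson correlation of 0.465 and a Spearman correlation of 0.368. No gene passed limma's test of whether the difference between the times itself differed between estrogen and vehicle, although 834 had an unadjusted p under 0.05, and 2 genes passed with array weights.

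Some genes had unequal values with the treatments that this test did not separate. SUSD3, an estrogen-induced gene, had a difference of 1.01 with vehicle and -0.08 with estrogen, and HERC5 had 0.17 with vehicle and 1.20 with estrogen. GRB14 had 2.13 and 0.93, DSCAM-AS1 had 0.68 and 1.59, and PMAIP1 had -0.36 and -1.09. CYP1A1 (1.96 and 1.90), ALPP (1.68 and 1.82) and INSIG1 (-0.76 and -0.72) had nearly equal values.

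**Figure D5:**
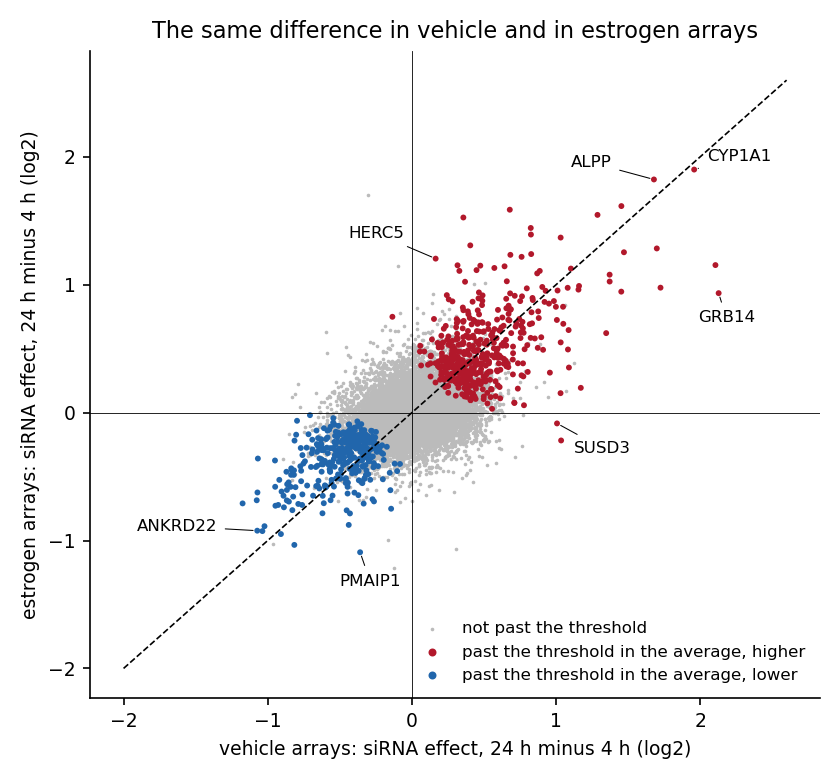
The siRNA effect at 24 h minus that at 4 h is plotted for vehicle arrays (horizontal axis, log2) against estrogen arrays (vertical axis, log2), with coloured points for the 829 genes past the threshold in the average. Of these, 826 lie in the quadrants of equal sign, and SUSD3 and HERC5 lie far from the dashed line of equal values.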

How the data were processed

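Total RNA was extracted with Trizol, labelled from the 3' end and hybridised to HG-U133 Plus 2.0 arrays, per the labels' protocols. The authors deposited log2 values made with RMA, per the submitters' processing notes, and a version is not given in the sources used here. Of 54675 probe sets, 41091 named 1 gene, and the probe set with the highest mean stood for each of 19775 genes. The 14335 genes with a log2 level of at least 5 in at least 3 arrays were tested. limma 3.58.1 (R 4.3.3) fitted 8 group means and the replicate number as a block on all 24 arrays, with Benjamini-Hochberg adjustment at 0.05. The script was tested on simulated data. The deviations from group means of arrays that share a number correlated with a median of 0.205, and 60 of 84 pairs were above 0.1. In 8 of 28 pairs of groups all 3 such correlations were above 0.1. The median for different numbers, -0.107, is no separate evidence, because the deviations within a group of 3 sum to 0. Named genes were ERBB2, the title's NCOA3 (not analysed here) and E2F1, up to 15 genes each way with the largest difference past the threshold and 1 sign in every treatment and replicate number, and of each list up to 4 members with the smallest adjusted p. Other list members that are named were chosen after their values were seen. The comparison and the 32 lists (613 genes, 528 tested) were chosen with earlier results of these data known. Promoters came from RefSeq through the gene symbol. The number of arrays limits the precision.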

Additional observations from a re-analysis of the deposited data

Results flagged for a closer look

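Dixon's test for a sample far from the others was applied to 136 groups of 6 arrays (34 measures), where chance marks about 1 in 20, or 6.8 groups. It marked 4. HMMR, the spindle assembly factor, had a log2 level of 7.913 on HER2 siRNA vehicle 4 h replicate 1, where the next array had 7.071. On the same array MTHFD2L had 7.465, against 7.039 on the next. Without that array the spindle list had 10 genes with a lower effect at 24 h in place of 13, and a median of -0.38 in place of -0.50. The difference between 3' and 5' probe sets of ACTB was highest on control siRNA vehicle replicate 1 at each time. It was 1.615 at 4 h, against 1.021 on the next array, and 1.776 at 24 h, against 1.283.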

How the results depend on the processing

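The 829 genes with a different siRNA effect at 24 and 4 h became 423 with no replicate block and 1258 with array weights. They were 282 for the difference in vehicle and 106 for that in estrogen, both from the same fit. They ranged from 78 to 932 on leaving out replicates: 315, 78 and 209 without all 8 arrays of replicate 1, 2 or 3, and from 594 up without single arrays. The share of higher calls, 56.6%, was 67.9% without replicate 2 and 82.8% without replicate 3. Under the other alternatives the count was between 646 (no filter) and 1090 (intensity trend). With no replicate block the change over time with control siRNA, 1619 genes, became 859. Leaving out replicates gave 331 to 1670 there, and 1611 to 3034 for HER2 siRNA (3002). The effects at 4 and 24 h, 7111 and 7982, became 4319 and 5071 with a covariate for GAPDH 3' minus 5' signal, and ranged from 5473 to 7154 and from 6757 to 8073 on leaving out replicates. With vehicle (282) the count was 93 with no replicate block, 441 with the stricter filter (level of 7), 550 with array weights, 462 with the trend and 14 to 472 without replicates. With estrogen (106) it was 32, 187, 246, 203 and 0 to 134 in that order, 165 after quantile normalisation and 53 without the 3 arrays numbered apart. The test between treatments (0) gave 1, 2 and 1 gene with the stricter filter, array weights and the trend, and 0 to 2 without replicates. The cause of these moves was not tested, beyond fewer arrays or other genes entering. Of 81 named genes that passed, 66 did so without each single array, 62 with no replicate block, and 49, 18 and 35 without replicate 1, 2 or 3. Only 15 passed under every alternative, and none changed direction under any alternative. Genes near a level of 5 have little signal over background.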
